A study of Mus musculus with 10 samples.

Results

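Abl1 and Bcr are the mouse counterparts of the genes that are joined in the BCR-ABL1 oncogene of Philadelphia chromosome-positive leukemia. Array probes were assigned to them by position in mouse build mm9. The Abl1 window was chromosome 2 from 31500000 to 31700000, with the gene taken as 31544000 to 31663000. The Bcr window was chromosome 10 from 74480000 to 74690000, with the gene taken as 74520000 to 74650000. Of 402346 placed probes, 73 fell in these windows, 40 at Abl1 and 33 at Bcr. All 73 were well above background, unsaturated and measured on all 10 arrays.

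Abl1 encodes a non-receptor tyrosine kinase that takes part in cytoskeletal signalling and in the response to DNA damage. Bcr encodes a cytoplasmic protein with an oligomerization domain. In the fusion, the amino-terminal part of BCR replaces the start of ABL1, and the kinase is then active without its normal restraint. In mouse models the fusion is commonly supplied as a cDNA. A cDNA holds exons without introns, so only probes in the exons it keeps could share sequence with it, whereas a copy change of the resident gene would reach exons, introns and flanks together.

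The study measured DNA copy number in 10 BCR-ABL1 leukemias by array comparative genomic hybridization on a 2-colour array. Genomic DNA of GFP+ leukemic bone marrow cells was labelled with Cy5, and DNA of non-leukemic, stage-matched bone marrow with Cy3. The series design text calls the normal DNA that of B220+ B cells. The comparison of genotypes is of 5 Ikzf1+/- tumours with 5 Ikzf1+/+ tumours, and BCR-ABL1 is common to both. Ikzf1 encodes Ikaros, a zinc finger transcription factor of lymphoid development. The labels used here give neither the vector, the form of the BCR-ABL1 transgene, the mouse strain nor the age, and they do not state whether each tumour is from its own animal. The spread behind each p-value is therefore that between arrays, part of which may be technical. Dyes were never swapped, so an effect of dye on a probe cannot be told apart from a difference shared by all tumours.

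Each slide held 2 arrays, and 1 of the 5 slides carried both genotypes, with Ikzf1+/- tumour 1 and Ikzf1+/+ tumour 5. The median Cy5 signal above background was 199 to 225 scanner units in Ikzf1+/- tumours and 88.4 to 159 in Ikzf1+/+ tumours, without overlap, so tumour signal moved with genotype. Noise was taken from differences in log2 ratio between adjacent autosomal probes, as their scaled median absolute deviation over the square root of 2. It was 0.180 ± 0.00969 in Ikzf1+/- tumours and 0.206 ± 0.0145 in Ikzf1+/+ tumours (SD, n = 5 each). The median log2 ratio of chromosome X was 0.11 ± 0.02 in Ikzf1+/- tumours and 0.91 ± 0.04 in Ikzf1+/+ tumours. Of 606 chromosome Y probes, 579 were higher in Ikzf1+/- tumours than in Ikzf1+/+ tumours at an adjusted p under 0.05 (limma). Sex-chromosome ratios thus moved with genotype, so a genotype difference below cannot be told apart from one that goes with sex-chromosome dose. Of the 283 probes taken as Ikzf1 by position, 2 differed between genotypes, and both were lower in Ikzf1+/- tumours, as were 4.43% of all placed probes and 0.0706% of autosomal probes adjusted alone. The clearer of them, at chromosome 11 position 11652072, had a log2 ratio of 0.07 ± 0.07 in Ikzf1+/- tumours and 0.53 ± 0.11 in Ikzf1+/+ tumours (SD, n = 5 each; adjusted p = 0.00318, limma with Benjamini-Hochberg adjustment). Against non-leukemic DNA these 2 probes lay near 0 in the heterozygous tumours and above 0 in the wild-type ones.

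All values below are log2 ratios of tumour over non-leukemic DNA, with each array centred on its autosomal median. A gain from 2 to 3 copies in every cell would give 0.58 at full response, and a loss of 1 of 2 copies would give -1. A probe was called raised or lowered at an adjusted p under 0.05 and a mean over tumours at least 0.3 from 0, in a limma fit over all placed probes.

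No probe of either gene was called raised or lowered in the tumours as a whole, with 0 of 40 called at Abl1 and 0 of 33 at Bcr (limma, Benjamini-Hochberg adjustment). Over all placed probes the same rule called 4.8% raised and 0.45% lowered. Most of these calls lay on chromosome X, and over autosomal probes alone 0.45% were called raised and 0.292% lowered, so a count of 0 in 73 probes is near the autosomal background. Without the size limit, 2 Abl1 probes and 1 Bcr probe passed the adjusted p, against 7.3% higher and 2.52% lower over all placed probes. Adjusted over autosomal probes alone, 0 Abl1 probes and 1 Bcr probe passed, against 1.75% higher and 1.38% lower (limma). At an unadjusted p under 0.05 the counts were 8 Abl1 probes and 6 Bcr probes, against 23.2% of all placed probes and 19.8% of autosomal probes. The upper end of the 95% interval of the mean stayed below 0.58 for all 40 Abl1 probes and all 33 Bcr probes, with the highest at 0.51 for Abl1 and 0.33 for Bcr. The lowest lower end was -0.27 at Abl1 and -0.23 at Bcr, above the value of a 1-copy loss. A mean shift of 0.5 planted in simulated probes passed the adjusted p in 94% of them, and a shift of 0.3 in 56%. These rates leave out the size limit and were adjusted over the simulated probes alone, so they are not those of the calling rule. A raise of about 0.3 or less at 1 probe could have been missed.

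**Figure D1:**
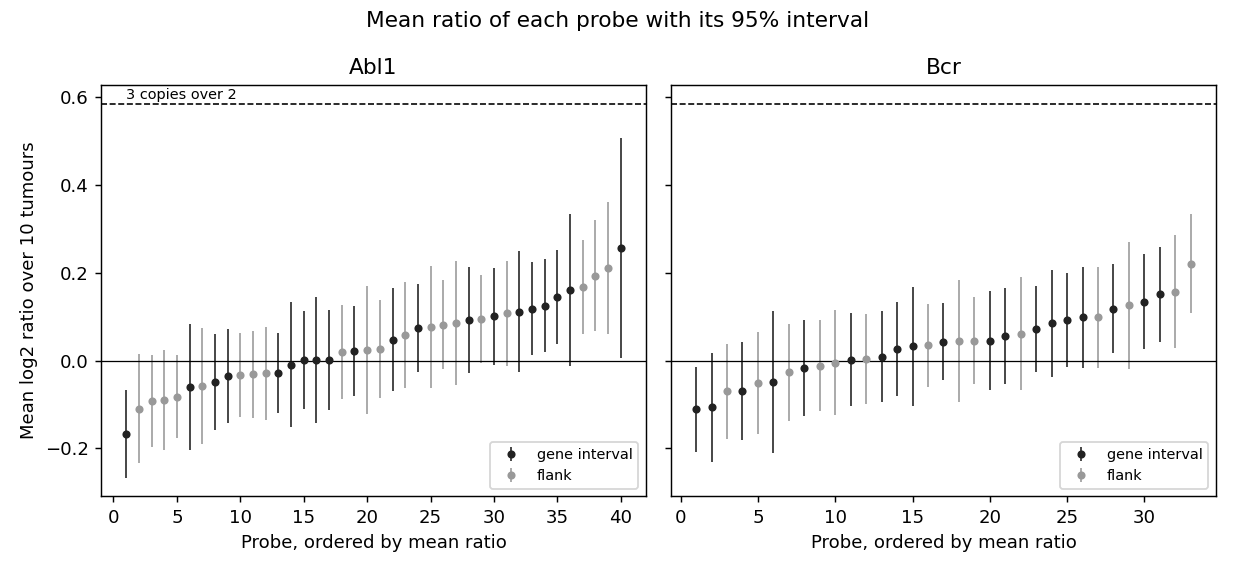
Mean log2 ratio of tumour over non-leukemic DNA for each of the 40 Abl1 and 33 Bcr probes, ordered by size, with the 95% interval from the limma fit over 10 tumours (dark, gene interval, grey, flank). The dashed line marks 3 copies over 2, and every interval ends below it, the nearest at 0.51.

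Averaged over its 20 probes, the Abl1 gene interval stood at 0.037, 0.047, 0.034, 0.066 and 0.10 in Ikzf1+/- tumours 1 to 5, against 0.050, 0.10, 0.035, -0.12 and 0.10 in Ikzf1+/+ tumours 1 to 5. In all, 9 tumours lay slightly above 0, Ikzf1+/+ tumour 4 lay below it, and the genotypes overlapped. The difference in means, Ikzf1+/- minus Ikzf1+/+, was 0.024 (exact permutation test over all splits, two-sided, p = 0.786, adjusted over both genes 0.786), and it was -0.015 without Ikzf1+/+ tumour 4 and 0.013 without the probe of highest single value. Over the 19 probes of the Bcr gene interval the values were 0.015, 0.047, 0.023, -0.0022 and -0.036 in Ikzf1+/- tumours, against 0.13, 0.034, 0.033, 0.081 and -0.0009 in Ikzf1+/+ tumours. The highest values were those of Ikzf1+/+ tumours 1 and 4, and the groups again overlapped. The Bcr difference was -0.046 (exact permutation p = 0.135, adjusted 0.270, in a design whose smallest p is 0.00794), and it reached -0.060 with an exact p of 0.0238, adjusted 0.0476, when arrays were centred on chromosome 10 instead of all autosomes. With normexp background correction its sign turned, to 0.032 (exact permutation p = 0.246), and without the probe of highest single value it was -0.024 (exact p = 0.317). The chromosome 10 median itself was -0.0040 ± 0.0053 in Ikzf1+/- tumours and -0.018 ± 0.011 in Ikzf1+/+ tumours. Within the slide that held both genotypes, the Ikzf1+/- tumour was 0.066 lower at Abl1 and 0.016 higher at Bcr than the Ikzf1+/+ tumour, the opposite sign to the pooled difference at both genes.

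A difference between the genes and their own flanks was not detectable. The Abl1 interval exceeded its 20 flanking probes by 0.014 ± 0.090 (SD, n = 10 tumours), with 8 tumours above 0 (exact sign-flip permutation test, two-sided, p = 0.625, adjusted 0.625), and by 0.0031 without the probe of highest single value. The gap was 0.055 ± 0.019 in Ikzf1+/- tumours and -0.027 ± 0.12 in Ikzf1+/+ tumours. At Bcr the interval minus its 14 flanking probes was -0.012 ± 0.060, with 5 tumours above 0 and 5 below (exact sign-flip p = 0.535, adjusted 0.625). The flank beyond the 3′ end of Abl1, where the Qrfp, Fibcd1 and Lamc3 genes follow in RefSeq order, lay above 0 in 10 of 10 tumours, at 0.038 ± 0.029 in Ikzf1+/- tumours and 0.15 ± 0.10 in Ikzf1+/+ tumours (SD, n = 5 each). The flank before Bcr, on the side of Rsph14, Gnaz and Rab36, had -0.0024 ± 0.041 in Ikzf1+/- tumours and 0.14 ± 0.060 in Ikzf1+/+ tumours. The flank before Abl1 had -0.028 ± 0.040 in Ikzf1+/- tumours and -0.011 ± 0.069 in Ikzf1+/+ tumours. Beyond Bcr the order was the other way, at 0.019 ± 0.050 in Ikzf1+/- tumours and -0.044 ± 0.10 in Ikzf1+/+ tumours. All flanks are given here without a test. Over 10 tumours the Abl1 gene mean of 0.045 lay between its flanks, at -0.019 before and 0.093 after. Lower Cy5 signal and higher noise moved with the higher Ikzf1+/+ values after Abl1 and before Bcr, and their part in the values was not tested.

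**Figure D2:**
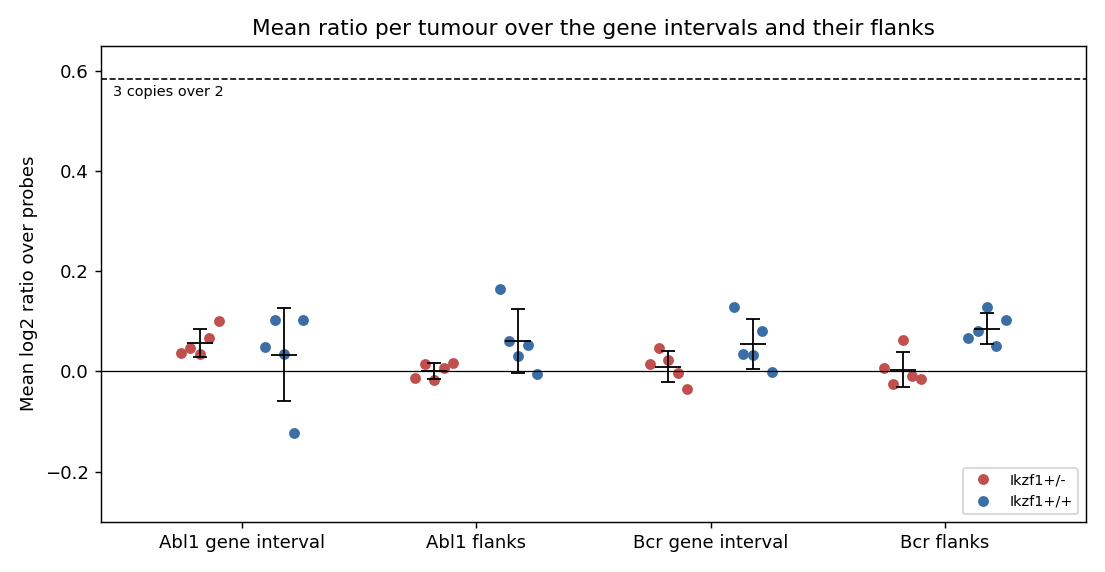
Mean log2 ratio per tumour (points) over the gene interval and over the flanks of Abl1 and Bcr, for Ikzf1+/- and Ikzf1+/+ tumours, with bars for the mean and SD of 5. All values lie between -0.12 and 0.17, well under the dashed line at 3 copies over 2, and the genotypes overlap in both gene intervals.

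Because the human fusion keeps the amino-terminal part of BCR and the carboxy-terminal part of ABL1, each gene interval was also divided at its midpoint. Both genes lie on the plus strand, so the 3′ part of Abl1 holds the exons nearer the carboxy terminus and the 5′ part of Bcr those nearer the amino terminus. The 12 probes of the 3′ part of Abl1 averaged 0.051 ± 0.026 in Ikzf1+/- tumours and 0.054 ± 0.14 in Ikzf1+/+ tumours, and the 8 probes of its 5′ part 0.067 ± 0.032 in Ikzf1+/- tumours and 0.0027 ± 0.047 in Ikzf1+/+ tumours. The 3′ part minus the 5′ part was -0.016 ± 0.013 in Ikzf1+/- tumours and 0.051 ± 0.13 in Ikzf1+/+ tumours, above 0 in 3 of 10 tumours. At Bcr the 9 probes of the 5′ part averaged 0.012 ± 0.064 in Ikzf1+/- tumours and 0.034 ± 0.052 in Ikzf1+/+ tumours, and the 10 probes of the 3′ part 0.0071 ± 0.056 in Ikzf1+/- tumours and 0.074 ± 0.091 in Ikzf1+/+ tumours. The 3′ part minus the 5′ part of Bcr was above 0 in 5 tumours and below 0 in 5. No step within either gene had the same sign in all 10 tumours. Probe annotation and an mm9 gene model were not used here, so probes could not be sorted into exons and introns. Median probe spacing was 4.99 kb at Abl1 and 5.54 kb at Bcr, wider than most exons.

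Along Abl1 the probe means over 10 tumours ran from -0.17 to 0.26, with a median of 0.025 over 40 probes, 26 above 0 and 14 below. Over all placed probes, chromosome X included, the median was 0.0040, with the 5th percentile at -0.16 and the 95th at 0.30.

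**Figure D3:**
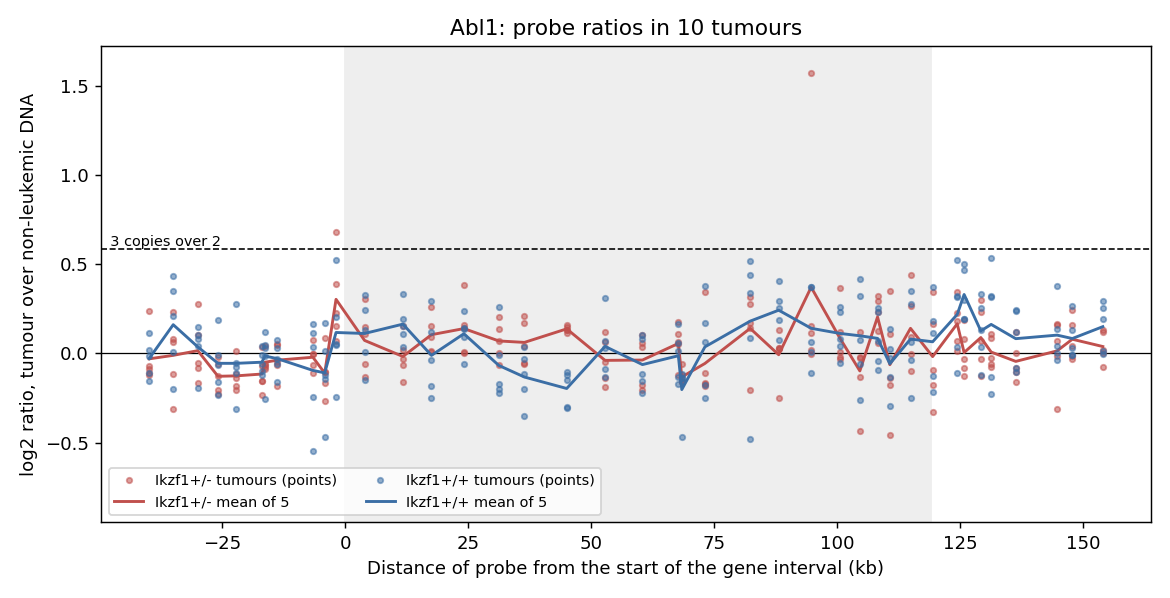
Log2 ratio of tumour over non-leukemic DNA at each Abl1 probe in every tumour (points) and the mean of 5 per genotype (lines), by distance in kb from the start of the gene interval (grey). A single point at 1.58 in Ikzf1+/- tumour 4 stands 94.7 kb into the gene, and the mean lines of both genotypes stay within 0.4 of 0.

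The Abl1 probe with the highest mean was A_67_P00336760, at chromosome 2 from 31638675 to 31638734 and 94.7 kb into the gene interval. Its mean of 0.26 did not pass the test (limma adjusted p = 0.204), and with normexp background correction the mean was 0.037 (limma adjusted p = 0.703). Its values were 0.11, 0.018, -0.00058, 1.58 and 0.15 in Ikzf1+/- tumours 1 to 5, against -0.11, 0.37, 0.0089, 0.062 and 0.37 in Ikzf1+/+ tumours 1 to 5. Ikzf1+/- tumour 4 stood alone, and without it the mean of the other 9 was 0.11. In that tumour the Cy5 signal was 156 scanner units, inside the range of 95.4 to 176 in the other 9 arrays. Its Cy3 signal, from non-leukemic DNA, was 52.6 units, below the range of 96.3 to 159 in the others. The nearest probes in the same tumour, 6.6 kb before and 5.8 kb after, had ratios of 0.024 and 0.0062. The single high ratio thus came with a low signal of the non-leukemic channel and a tumour signal like that of the other arrays.

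**Figure D4:**
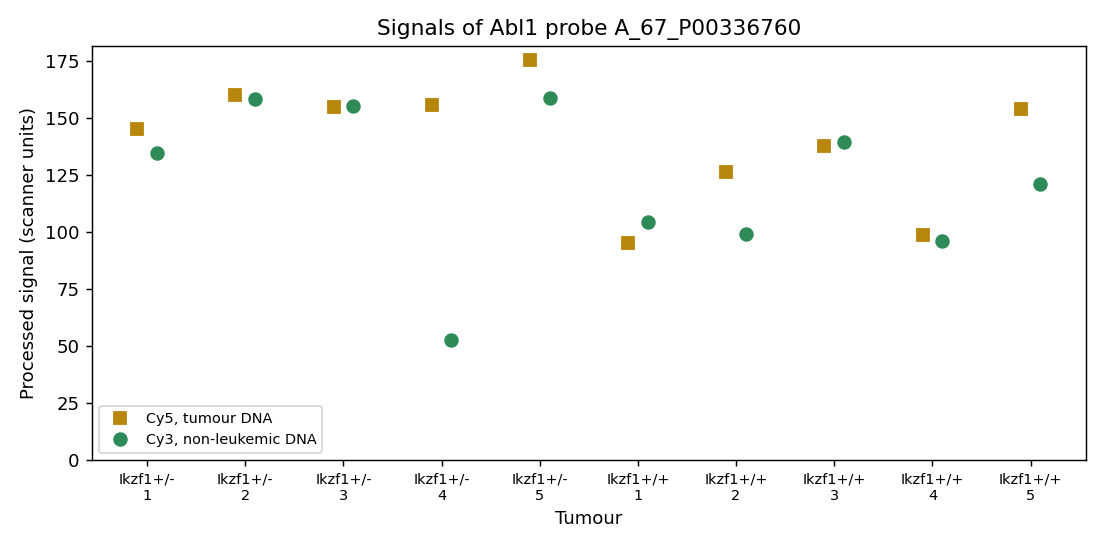
Processed signal of the Abl1 probe A_67_P00336760 in each tumour, in scanner units, for tumour DNA (squares, Cy5) and non-leukemic DNA (circles, Cy3). In Ikzf1+/- tumour 4 the tumour signal of 156 lies among the others, and the non-leukemic signal of 52.6 is the lowest of the 10.

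Just before the Abl1 interval, probe A_67_P00336579 (1.9 kb outside it) had the next highest mean, 0.21, with 0.16, 0.39, 0.067, 0.23 and 0.68 in Ikzf1+/- tumours and 0.051, 0.53, 0.050, -0.24 and 0.21 in Ikzf1+/+ tumours. Of the 10 tumours, 9 were above 0. The mean lay under the size limit and did not pass the adjusted p (limma, 0.0731, and 0.102 over autosomal probes alone). Its limma adjusted p was under 0.05 in 2 of 19 alternatives. Within the gene, A_67_P00336742, 82.3 kb in, had a mean of 0.16 and ranged from -0.48 to 0.52 among tumours (adjusted p = 0.252). The other high means were those of a pair in the distal flank. A_53_P156691 averaged 0.19 (limma adjusted p = 0.0522, and 0.0820 over autosomal probes alone). Its limma adjusted p was under 0.05 in 5 of 19 alternatives, and with normexp background correction its mean was 0.058 (limma adjusted p = 0.635). A_53_P149468 averaged 0.17 and passed the adjusted p but not the size limit (limma adjusted p = 0.0442). This pass was lost in 12 of 19 alternatives, with an adjusted p of 0.0757 over autosomal probes alone, and relative to the running median of neighbouring probes the mean was 0.085 (limma adjusted p = 0.394).

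The lowest Abl1 mean belonged to A_67_P04474515, at chromosome 2 from 31612375 to 31612434 and 68.4 kb into the gene. It had -0.16, -0.060, -0.16, -0.16 and -0.12 in Ikzf1+/- tumours, against -0.47, -0.11, -0.14, -0.14 and -0.16 in Ikzf1+/+ tumours. All 10 tumours lay below 0, the only one of the 40 Abl1 probes with a single sign throughout. The probe was named for its low mean, and the share of all placed probes with a single sign was not counted, so this cannot be weighed. A_67_P04474515 was also by far the brightest probe of both windows, with median signals of 1185 units in Cy5 and 1319 in Cy3. The next highest medians were 280 in Cy5 and 274 in Cy3, and the part of brightness in its ratio was not tested. The mean of -0.17 passed the adjusted p (limma, 0.0316) without reaching the size limit, and the pass was lost in 10 of 19 alternatives. The adjusted p was 0.0618 over autosomal probes alone, 0.0567 to 0.0716 without Ikzf1+/+ tumour 1 or without Ikzf1+/- tumour 1, 3, 4 or 5, and 0.606 with normexp background correction, where the mean was -0.070. The next 4 lowest probes, A_67_P00336574, A_67_P04474266, A_67_P04474277 and A_67_P00336552, all lay in the proximal flank with means from -0.11 to -0.082, and none passed the test.

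Between genotypes, 1 of 40 Abl1 probes passed the limma test at an adjusted p under 0.05, against 0.396% of all placed probes higher in Ikzf1+/- tumours and 4.43% lower. Over autosomal probes alone the shares were 0.0178% and 0.0706%. The probe, A_67_P04474465, lies at chromosome 2 from 31589034 to 31589093, 45.0 kb into the gene. It had 0.13, 0.13, 0.12, 0.15 and 0.16 in Ikzf1+/- tumours 1 to 5, against -0.31, -0.10, -0.30, -0.15 and -0.12 in Ikzf1+/+ tumours 1 to 5. Each Ikzf1+/- tumour was above 0, each Ikzf1+/+ tumour was below it, and the genotypes did not overlap. How large a share of all placed probes shows no overlap was not counted. The difference was 0.33 with an SE of 0.086 and a 95% interval of 0.15 to 0.52 (limma adjusted p = 0.0297). Within the slide that held both genotypes, the Ikzf1+/- tumour had 0.13 and the Ikzf1+/+ tumour -0.12, the same direction.

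Most probes called between genotypes were on chromosome X, and the adjustment was shared with them. With autosomal probes alone the size stayed and the adjusted p was 0.241, and over 19 alternatives it ran from 0.0189 to 0.547, under 0.05 in 8. Leaving out Ikzf1+/+ tumour 1 gave an adjusted p of 0.0699, leaving out Ikzf1+/+ tumour 3 gave 0.0799, and leaving out any 1 of the Ikzf1+/- tumours gave 0.0622 to 0.0721. At an unadjusted p under 0.05, 3 Abl1 probes differed between genotypes, against 12.5% of all placed probes and 8.53% of autosomal probes. The other 2 did not pass the adjusted test and lay on the opposite side. A_53_P149468 in the distal flank averaged 0.0052 ± 0.13 in Ikzf1+/- tumours and 0.33 ± 0.15 in Ikzf1+/+ tumours, without overlap (difference -0.33, limma adjusted p = 0.0933). A_67_P00336746, 88.1 kb into the gene, averaged -0.0070 ± 0.14 in Ikzf1+/- tumours and 0.24 ± 0.12 in Ikzf1+/+ tumours (difference -0.25, adjusted p = 0.269). Over the window, 27 of 40 probes had a lower mean in Ikzf1+/- tumours, with a median difference of -0.029. The share of all placed probes with a lower mean was not counted, so this is not read as a trait of the window.

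Along Bcr the probe means ran from -0.11 to 0.22, with a median of 0.043 over 33 probes, 23 above 0 and 10 below. The highest was outside the gene, at A_67_P02160645, chromosome 10 from 74510326 to 74510385 and 9.7 kb before the interval. It had -0.022, 0.31, 0.25, 0.16 and 0.12 in Ikzf1+/- tumours, against 0.48, 0.36, 0.25, -0.011 and 0.31 in Ikzf1+/+ tumours. In all, 8 of 10 tumours were above 0 and the genotypes overlapped. Its mean of 0.22 (95% interval 0.11 to 0.33) had the smallest adjusted p of the 73 probes (limma, 0.0116; 0.0325 over autosomal probes alone) and fell short of the size limit. With normexp background correction the mean was 0.11 and the adjusted p 0.214, and relative to the running median of neighbouring probes they were 0.13 and 0.232.

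Inside the Bcr gene no probe passed the adjusted p. The highest means were 0.15 at A_67_P02160798, 70.1 kb in (limma adjusted p = 0.0799), and 0.13 at A_53_P159245, 2.5 kb in (adjusted p = 0.120). A_53_P159245 had 0.12, -0.026, -0.17, 0.078 and 0.18 in Ikzf1+/- tumours, against 0.26, 0.47, 0.16, 0.095 and 0.17 in Ikzf1+/+ tumours. It is the probe nearest the start of the approximate interval. Its Ikzf1+/- values lay on both sides of 0, and its Ikzf1+/+ values were all above 0, making 8 of 10 tumours above 0. Whether it lies in sequence that a fusion would keep is not known here, since probes could not be sorted into exons. Further high means were in the proximal flank, 0.16 at A_67_P07109333 and 0.13 at A_67_P07109308. The lowest means, -0.11 each, were those of adjacent gene probes, A_67_P07109486 and A_67_P02160735, which begin at 74554990 and 74559582, and neither passed the test (adjusted p = 0.293 and 0.153). A_67_P07109769, A_53_P135941 and A_53_P112818 followed at -0.070, -0.069 and -0.052.

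**Figure D5:**
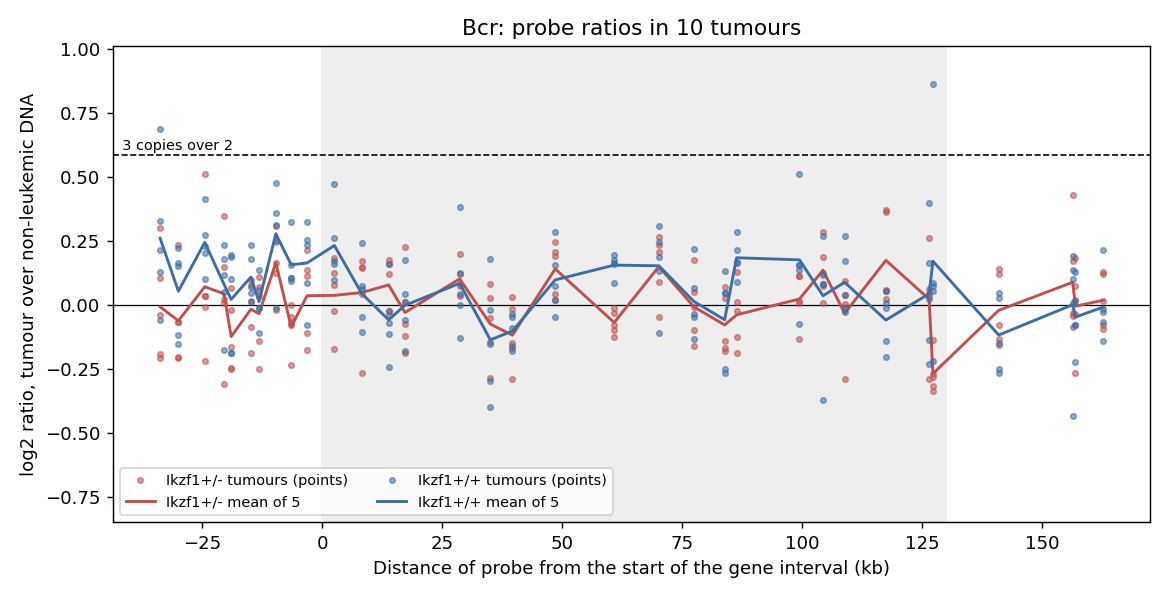
Log2 ratio of tumour over non-leukemic DNA at each Bcr probe in every tumour (points) and the mean of 5 per genotype (lines), by distance in kb from the start of the gene interval (grey). The highest point, 0.86 in Ikzf1+/+ tumour 1, lies 127.2 kb in, and the mean lines stay within 0.3 of 0.

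No Bcr probe differed between genotypes at an adjusted p under 0.05 (0 of 33, limma), and 5 had an unadjusted p under 0.05, against 12.5% of all placed probes and 8.53% of autosomal probes. The largest difference was at A_53_P150961, chromosome 10 from 74647203 to 74647262 and 127.2 kb in, close to the end of the interval. It had -0.27, -0.32, -0.14, -0.34 and -0.28 in Ikzf1+/- tumours, against 0.86, 0.083, 0.075, 0.052 and -0.22 in Ikzf1+/+ tumours. All Ikzf1+/- tumours were below 0, and Ikzf1+/+ tumour 5 fell among them. The difference of -0.44 did not pass the test (limma adjusted p = 0.163), and without Ikzf1+/+ tumour 1 it was -0.27 (adjusted p = 0.222). In Ikzf1+/+ tumour 1 the Cy5 signal of this probe was 151 units, above the 93.4 to 132 of the other 9 arrays, and the Cy3 signal was 84.6, below their 89.6 to 160. The probe 0.8 kb before it had 0.16 in that tumour, and the one 13.7 kb after it -0.25. A_67_P07109385, 6.5 kb before the gene, averaged -0.087 ± 0.087 in Ikzf1+/- tumours and 0.16 ± 0.096 in Ikzf1+/+ tumours, without overlap (difference -0.24, limma adjusted p = 0.208). Inside the gene, A_67_P02160782, named after its values were seen, averaged -0.070 ± 0.046 in Ikzf1+/- tumours and 0.15 ± 0.042 in Ikzf1+/+ tumours, also without overlap (difference -0.22, limma adjusted p = 0.205). The share of all placed probes without overlap was not counted, so its absence at single probes here and at Abl1 cannot be weighed. Over the window, 22 of 33 probes had a lower mean in Ikzf1+/- tumours, with a median difference of -0.028, again without the share over all placed probes.

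Single values past the level of 3 copies over 2 were rare at both genes, near their share over autosomal values. Of the 730 values of 73 probes in 10 tumours, 4 were at or above it, against 0.7% of autosomal values. They were the 1.58 and the 0.86 above, the 0.68 at A_67_P00336579 in Ikzf1+/- tumour 5 and 0.69 at A_67_P07109308 in Ikzf1+/+ tumour 3. Each was at a different probe and in a different tumour. Of these, 1 was at or above 1, against 0.0888% of autosomal values, and none of the 730 was at or below -1, against 0.095%. For stretches longer than 1 probe, means over 5 consecutive probes were taken in each tumour. At Bcr none of 29 such runs was 0.3 or more from 0 in any tumour. At Abl1, of 36 runs, 2 were that high in Ikzf1+/- tumour 4 (highest 0.34), and 2, 2 and 3 were in Ikzf1+/+ tumours 2, 4 and 5 (highest 0.35, 0.35 and 0.39), with none in the other 6. Both runs of Ikzf1+/- tumour 4 hold the single value of 1.58. The highest runs of Ikzf1+/- tumour 4 and Ikzf1+/+ tumour 5 both began 73.1 kb into the gene, and that of Ikzf1+/+ tumour 2 began 82.3 kb in. These runs overlapped, and each held A_67_P00336760, which had 0.37 in Ikzf1+/+ tumour 2 and 0.37 in Ikzf1+/+ tumour 5. The highest run of Ikzf1+/+ tumour 4 began in the distal flank. Over all autosomes 1.98% of runs were past this size in either direction, and neither gene held a run near 0.58.

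Across the arrays, the mean ratio of each gene interval was also set beside 100 kb windows on other chromosomes. Of 15872 windows with at least 10 probes, those most like the Abl1 interval began at position 5800001 of chromosome 17, 182500001 of chromosome 1 and 105500001 of chromosome 4, with mean absolute differences of 0.024, 0.024 and 0.025 over the 10 arrays. Those most like the Bcr interval began at 192900001 of chromosome 1, 96900001 of chromosome 11 and 98300001 of chromosome 15, at 0.018, 0.018 and 0.018. Abl1 and Bcr differed from each other by 0.070, near the median over windows of 0.085 for Abl1 and 0.067 for Bcr. The points share arrays and centring, and the windows were not named.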

How the data were processed

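Genomic DNA of 10 tumours (Cy5) and of non-leukemic bone marrow (Cy3) was hybridized to 2-colour Agilent arrays, from 1.5 µg of DNA per the labels' protocols. Intensity values are the processed signals the authors deposited, background-subtracted and dye-normalized by lowess per the file headers. Agilent Feature Extraction 10.5.1.1 is named in the submitters' processing notes and 10.7.3.1 in the file headers. The scanner files, as deposited, also hold the log10 ratio of the processed Cy5 over Cy3 signals, used here as log2 to find the scale of the matrix. The authors' deposited matrix holds log2 ratios in the same direction, with array medians of -0.0194 to -0.00060 and a slope of 1.00 on the scanner values. Its unstated centring is near 0.

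The 412783 non-control spots, less outlier flags, gave 402404 probes, of which 402346 were placed and 382487 autosomal. Log2 Cy5 over Cy3 was centred on the autosomal median. R 4.3.3 with limma 3.58.1 fitted both genotypes over all placed probes with Benjamini-Hochberg adjustment over 402345 tested. Gene interval means were tested by exact permutation (scipy 1.17.1). The number of arrays limits the precision. The fit was checked on 50000 simulated probes, counting an adjusted p under 0.05 without the size limit, adjusted over the simulated probes alone. Tumours against non-leukemic DNA recovered 16%, 56%, 94% and 100% of shifts of 0.2, 0.3, 0.5 and 1.0 (8 false calls). The genotype difference recovered 0%, 0%, 16% and 94% (3 false calls).

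Named probes were those called, the 5 highest and 5 lowest means and the 3 largest genotype differences of each window. Members, lists and thresholds were chosen with earlier results of these data known. The mm9 intervals of Abl1, Bcr and Ikzf1 are approximate positions, not read from an annotation. A list of 40 BCR-ABL1 signalling genes was not analysed here, since 0 could be placed. RefSeq (GRCm38.p6) gave only strand and neighbour order. Alternatives were normexp on median signals (offset 50), the deposited matrix, loess, other centring, a running median of 11 probes, a dim-probe filter, slide and replicate blocks, size thresholds of 0.2 and 0.5, medians over probes, and leaving out each tumour. Fits on autosomal probes alone, and means without the probe of highest single value, were chosen after seeing the data.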

Additional observations from a re-analysis of the deposited data

Results flagged for a closer look

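Of 60 sets of 5 tumours tested, over the named probes and the gene and flank means, 5 held a value far from the other 4, all at named probes. Chance flags about 1 set in 20, a rate that does not hold for probes named for their extreme means or differences, as these were. A_67_P00336760 in Abl1 read 1.58 in Ikzf1+/- tumour 4, against -0.00058 to 0.15 in the other Ikzf1+/- tumours. A_67_P00336746 in Abl1 read -0.25 in Ikzf1+/- tumour 3, against 0.024 to 0.13 in the other Ikzf1+/- tumours. A_67_P04474515 in Abl1 read -0.47 in Ikzf1+/+ tumour 1, against -0.16 to -0.11 in the other Ikzf1+/+ tumours. A_53_P150961 in Bcr read 0.86 in Ikzf1+/+ tumour 1, against -0.22 to 0.083 in the other Ikzf1+/+ tumours. A_67_P07109385 before Bcr read 0.32 in Ikzf1+/+ tumour 1, against 0.095 to 0.15 in the other Ikzf1+/+ tumours. Ikzf1+/+ tumour 1 accounted for 3 of the 5. Its array had the lowest Cy5 signal of the 10, 88.4 units, and the highest noise between adjacent probes, 0.222. The part of either in these values was not tested.

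The genotype difference at A_67_P04474465 in Abl1 was 0.33, with every Ikzf1+/- tumour above 0 and every Ikzf1+/+ tumour below it. Its pass was lost in 11 of 19 alternatives, with a limma adjusted p of 0.241 over autosomal probes alone and 0.547 relative to the running median, where the difference was 0.24.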

How the results depend on the processing

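The counts of 0 Abl1 probes and 0 Bcr probes called against non-leukemic DNA held under every alternative run, except that a size threshold of 0.2 called 1 Bcr probe, A_67_P02160645. The highest means were 0.26 at Abl1 and 0.22 at Bcr, under the size limit of 0.3. The slide and replicate blocks, the dim-probe filter, autosomal probes alone and the threshold of 0.5 left these means unchanged. They could therefore not have called a probe. The count of 1 Abl1 probe between genotypes was 0 with own-chromosome centring, the running median, the replicate block or autosomal probes alone, and 0 to 1 with a tumour left out. Normexp gave 2 at Abl1 and 1 at Bcr (A_67_P02160894, difference 0.62). Normexp also turned the Bcr interval difference to 0.032 (exact permutation p = 0.246), the Bcr interval minus flanks to 0.012 (exact p = 0.609), and the means of A_67_P04474277, A_53_P159245 and A_53_P135941 to 0.023, -0.0086 and 0.065. The cause was not tested. Own-chromosome centring gave the Bcr difference of -0.060 (exact p = 0.0238). Without the probe of highest single value the differences were 0.013 at Abl1 and -0.024 at Bcr. Within the shared slide the differences were -0.066 at Abl1 and 0.016 at Bcr, without a test. With 1 tumour left out, the Abl1 difference ran from -0.015 (without Ikzf1+/+ tumour 4, exact p = 0.444) to 0.041, the Bcr difference from -0.060 to -0.028, and the interval minus flanks from 0.0038 to 0.035 at Abl1 and from -0.022 to -0.0023 at Bcr. Tumours of equal number did not deviate together over autosomal probes (r from -0.0158 to 0.051). No pairing by number was thus visible in the ratios, which does not settle whether equal numbers share a source. With the replicate block the interval differences were 0.024 (exact p = 1.0) at Abl1 and -0.046 (exact p = 0.188, smallest possible 0.0625) at Bcr. The dim-probe filter removed none of the 73 probes. The alternative gene interval was not run, since it needed an annotation column that was not used here. Probe spacing of about 5 kb and 5 tumours per genotype limit what a single exon could show.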
